A study of Mus musculus with 33 samples.

Results

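The comparison is between 4 *Nlrp5*-/- and 4 *Nlrp5*+/+ single mouse oocytes at the NSN (non-surrounded nucleolus) stage, 8 of the 33 oocytes in the series. They are oocytes 13, 14, 29 and 30 (*Nlrp5*-/-) and 70, 78, 79 and 87 (*Nlrp5*+/+), found by the oocyte number in the column names of the count table and the genotype in the labels. *Nlrp5*-/- mice carry a 5 bp CRISPR deletion on a C57BL6/Babr background and *Nlrp5*+/+ mice are wild type on the same background. The deletion brings a premature stop. All mice were 3 weeks old, no treatment is named, and oocytes were freed from the ovary by digestion with collagenase and trypsin. According to the methods, *Nlrp5*-/- mice were littermates of *Nlrp5*+/- mice, whereas *Nlrp5*+/+ mice usually came from the colony of origin. Litter and genotype therefore cannot be told apart, and neither can library index and genotype, since each first index in the library names occurred with 1 genotype only. Each library holds the polyadenylated RNA of 1 germinal vesicle oocyte. No mouse is named in the labels, so the 4 oocytes of a genotype count as 1 sample. No test was possible, and SDs (n = 4 oocytes) describe the spread between cells only.

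NLRP5 is a core protein of the subcortical maternal complex, a cytoplasmic assembly of oocytes and early embryos that also holds OOEP, TLE6, KHDC3 and PADI6. Females without it produce embryos that stop at early cleavage, and the complex is linked to cytoplasmic lattices, mitochondrial positioning and the storage of maternal proteins. NSN oocytes still transcribe and stockpile maternal RNA, before chromatin surrounds the nucleolus and transcription stops. The question of the comparison is whether loss of *Nlrp5* changes the RNA that these oocytes hold.

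Depth was 4225037 to 11416257 counts on genes in *Nlrp5*-/- oocytes and 7661904 to 11048982 in *Nlrp5*+/+ oocytes, and oocytes 13 and 29 were the shallowest. The 12 listed oocyte markers had counts in all 8 libraries and summed to 26307 to 31194 CPM (counts scaled to a fixed library total) in *Nlrp5*-/- and 24600.5 to 30249 in *Nlrp5*+/+ oocytes. The stage was set by the study from 105 NSN and 59 SN (surrounded nucleolus) marker genes measured in the same libraries, so those genes took part in choosing the oocytes. Of the genes described here, *Pitpnb*, *Astl*, *Oosp1*, *Hsph1* and *Id3* are such staging markers, and their values are a description only. Oocytes 13 and 14 stood apart from 29 and 30 by genes of follicle cells, described below, and results that rest on them are given also without them. Oocytes 13 and 14 share a first library index and 29 and 30 share another, so index and this split cannot be told apart.

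Values are normalized counts, that is, counts divided by a size factor per oocyte. They are listed in the order of oocytes 13, 14, 29 and 30 for *Nlrp5*-/- and 70, 78, 79 and 87 for *Nlrp5*+/+. A log2 ratio is that of *Nlrp5*-/- over *Nlrp5*+/+ means after adding 1 to each. Genes with a mean of at least 10 over the 8 oocytes were described, and "without overlap" means that all 4 *Nlrp5*-/- oocytes lay on one side of all 4 *Nlrp5*+/+ oocytes.

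Most of the transcriptome was at a similar level in both genotypes. Of 13935 genes, 91.6% had means within 2-fold, and the median log2 ratio was 0.01. In *Nlrp5*-/- oocytes 724 genes (5.2%) were at least 2-fold higher and 449 (3.22%) at least 2-fold lower. Without overlap, 550 genes (3.95%) were higher and 427 (3.06%) lower. Both conditions held for 186 higher (1.33%) and 152 lower genes (1.09%). Scaled by total count instead, 446 genes were higher and 495 lower without overlap, so the balance between the directions depends on the scaling. Genes past 2-fold were mostly scarce. Their median normalized count was 24.5 for those higher and 29 for those lower, against 178 over all genes. Among the 2787 most abundant genes only 8 were 2-fold higher and 6 lower, but 138 and 80 did not overlap, so most abundant RNAs that separated the genotypes did so by less than 2-fold. The higher genes were not spread evenly over the 4 oocytes, since 418 of the 724 were highest in oocyte 14 and 133 in oocyte 13, against 97 in 29 and 76 in 30. Without oocytes 13 and 14, 490 genes were at least 2-fold higher, 315 of them among the 724, and 807 were at least 2-fold lower, 348 of them among the 449.

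**Figure D1:**
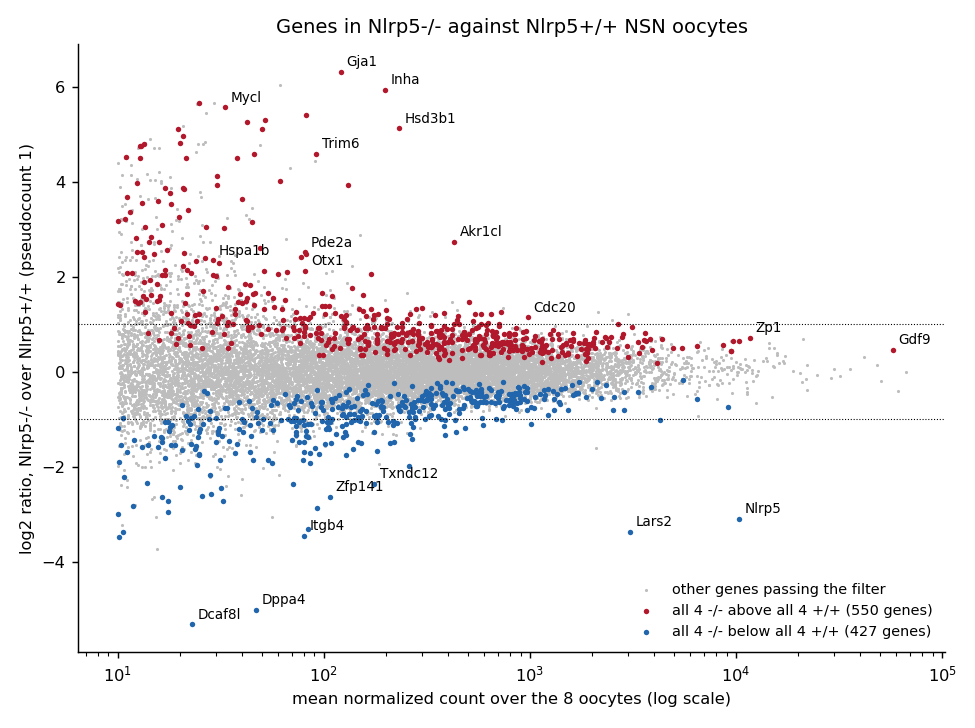
Each point is 1 of 13935 genes, with its mean normalized count over the 8 oocytes (x, log scale) and its log2 ratio of *Nlrp5*-/- over *Nlrp5*+/+ (y); red and blue points are the 550 and 427 genes without overlap, and dotted lines mark 2-fold. *Nlrp5* and *Lars2* are the abundant genes far below the lines, and most points beyond them lie at low counts.

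*Nlrp5* itself (ENSMUSG00000015721, chr7:23385889-23441922, GRCm38, plus strand) checked the labels. It had 2702, 1387, 2576 and 2006 normalized counts in *Nlrp5*-/- oocytes and 11144, 18119.9, 30112 and 14584 in *Nlrp5*+/+ oocytes, which leaves 11.7% of the wild-type mean and a log2 ratio of -3.09. Every *Nlrp5*-/- library lay far below every *Nlrp5*+/+ library. The partners of the complex had smaller ratios. *Padi6*, which is needed for cytoplasmic lattices, was at 66824 ± 9629 against 66792 ± 11893, and *Khdc3* at 8491 ± 2209.5 against 7544 ± 971. *Tle6*, a structural core member, had 21830.2 to 29404 in *Nlrp5*-/- against 12285 to 23567 in *Nlrp5*+/+ oocytes (log2 ratio 0.68), whereas *Ooep*, another core member, had 6011 to 14413 against 13430.3 to 16686 (-0.65). Both pairs of ranges overlapped, and none of the 8 listed genes of the complex and its partners reached 2-fold or was without overlap, where the shares of all genes given above would make under 1 gene of each kind. The related genes *Nlrp2*, *Nlrp4f* and *Nlrp14* had log2 ratios of -0.23, -0.22 and -0.39, and the list median was -0.11.

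The largest ratios above 1 belonged in part to genes of the somatic follicle. The 15 highest among genes without overlap and with a mean of at least 50 were *Gja1*, *Inha*, *Ldha*, *Obsl1*, *Hsd3b1*, *Bok*, *Trim6*, *Scd2*, *Tceal9*, *Akr1cl*, *Pde2a*, *Gm45837*, *Pitpnb*, *Otx1* and *Tmem51*. Their direction and lack of overlap were conditions of this choice. *Gja1*, *Inha*, *Ldha*, *Obsl1*, *Bok*, *Trim6* and *Scd2* also had a wild-type mean under 10 and so had to be higher. *Inha*, the alpha subunit of inhibin (chr1:75507077-75510366, plus strand), had 548, 922, 66.3 and 24 in *Nlrp5*-/- and 10.5, 4.89, 6.13 and 0 in *Nlrp5*+/+ oocytes. *Hsd3b1*, a steroid dehydrogenase (chr3:98852194-98859794, minus strand), had 293, 1399, 57.8 and 59.7 against 14.7, 12.7, 10.7 and 9.67. Both were many times higher in oocytes 13 and 14 than in 29 and 30. That 29 and 30 also lay above every wild-type oocyte follows from the choice of genes without overlap. *Gja1*, connexin 43 of granulosa cell gap junctions, had 404, 524, 22.1 and 13.7 against 4.90, 0, 2.30 and 0.967. *Obsl1*, a cytoskeletal adaptor that starts under 1 kb from *Inha* on the other strand, had 85.8, 302, 11.9 and 7.55 against 3.50, 0, 0 and 2.90. It thus had the same order as *Inha* among *Nlrp5*-/- oocytes, but not among wild-type oocytes. Without oocytes 13 and 14 the log2 ratio was 2.66 in place of 6.31 for *Gja1*, 2.86 in place of 5.94 for *Inha*, 2.21 in place of 5.13 for *Hsd3b1* and 2.07 in place of 5.31 for *Obsl1*. The same held for *Bok*, a BCL2 family member (2.39 in place of 5.12), *Scd2*, a fatty acid desaturase (1.67 in place of 4.02), *Tceal9* (1.47 in place of 3.93) and *Akr1cl*, an aldo-keto reductase (0.63 in place of 2.73). Oocyte 14 alone moved these ratios by over 1.5-fold. Without it they were 5.58 for *Gja1*, 5.06 for *Inha*, 3.41 for *Hsd3b1*, 3.78 for *Obsl1*, 3.85 for *Bok*, 3.33 for *Scd2*, 2.84 for *Tceal9* and 1.29 for *Akr1cl*. Wild-type oocyte 79 mattered for *Bok* (5.84 without it).

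Other genes were high in oocytes 29 or 30 as well. *Pde2a*, a phosphodiesterase that degrades cGMP and cAMP (chr7:101421691-101512827, plus strand), had 135, 102, 161 and 157 in *Nlrp5*-/- and 39.2, 6.85, 11.5 and 35.8 in *Nlrp5*+/+ oocytes, a log2 ratio of 2.52 (2.73 without oocytes 13 and 14). Its values were nearly level among the 4 *Nlrp5*-/- oocytes. *Gm45837* overlaps *Pde2a* on the same strand and had almost the same counts, so the 2 cannot be separated. *Trim6*, a ubiquitin ligase, was highest in oocyte 29 (58.5, 27.5, 477 and 146 against 9.11, 3.91, 0 and 12.6) with a log2 ratio of 4.59, or 3.42 without that oocyte and 5.42 without 13 and 14. *Otx1*, a homeobox transcription factor, was highest in oocyte 30 (58.5, 91.7, 78.2 and 304 against 22.4, 6.85, 57.4 and 31.9) with 2.13, or 1.33 without it. For both genes the other 3 oocytes lay closer to the wild-type range but still above it, as the choice of genes without overlap required. *Pitpnb*, a phosphatidylinositol transfer protein, had 228, 136, 100.3 and 59.7 against 31.5, 6.85, 43.7 and 12.6, and is a staging marker. *Tmem51*, a membrane protein, had 35.1 to 164 against 7.73 to 30.3.

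Under the same limits of no overlap and a mean of at least 50, the lowest ratios belonged to a mixed set, *Itgb4*, *Lars2*, *Sppl2a*, *Nlrp5*, *Xlr5c*, *Zfp141*, *Faap20*, *Txndc12*, *Blzf1*, *Sco1*, *Cebpb*, *Gm33301*, *Gm7072*, *Zfp410* and *Arl14epl*. *Itgb4*, an integrin subunit of hemidesmosomes (chr11:115974709-116008412, plus strand), had 3.90, 23.3, 18.7 and 4.81 in *Nlrp5*-/- and 172, 214, 67.4 and 139 in *Nlrp5*+/+ oocytes (log2 ratio -3.45). *Txndc12*, a thioredoxin of the endoplasmic reticulum (chr4:108834601-108862127, plus strand), had 33.2, 92.4, 44.2 and 57.7 against 225, 307, 371 and 278 (-2.36). *Blzf1*, which encodes the Golgi protein golgin-45 (chr1:164289800-164307489, minus strand), had 197, 60.7, 105 and 54.9 against 438, 394, 453 and 368 (-1.97). In these genes the 4 *Nlrp5*-/- oocytes were low together, which the choice of genes without overlap required. *Lars2*, the mitochondrial leucyl-tRNA synthetase, had 554, 552, 474 and 588 against 3159.7, 3344, 15142 and 649.6. Its *Nlrp5*-/- values were close to each other, but the wild-type values spread widely, oocyte 87 lay just above the *Nlrp5*-/- range, and the log2 ratio of -3.36 was -2.13 without oocyte 79. *Sppl2a*, an intramembrane protease, had 0 to 34 against 110.0 to 217, with -4.08 without oocyte 29 in place of -3.30. Levels of *Cebpb*, a transcription factor, were 23.4 to 55.6 against 94 to 176. *Sco1*, a copper chaperone of cytochrome c oxidase, had 5.85 to 38.1 against 57.4 to 134. *Faap20*, of the Fanconi anaemia core complex, had 13.7 to 28.9 against 32.3 to 244 and a log2 ratio of -2.36, or -1.76 without oocyte 87. *Gm33301* had 5.10 to 53.6 against 116 to 136, *Gm7072* 8.93 to 33.9 against 36.7 to 152 (log2 ratio -1.85, or -2.54 without 13 and 14) and *Arl14epl* 20.4 to 76.2 against 98.1 to 208. The plot of named genes by oocyte shows these values.

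**Figure D2:**
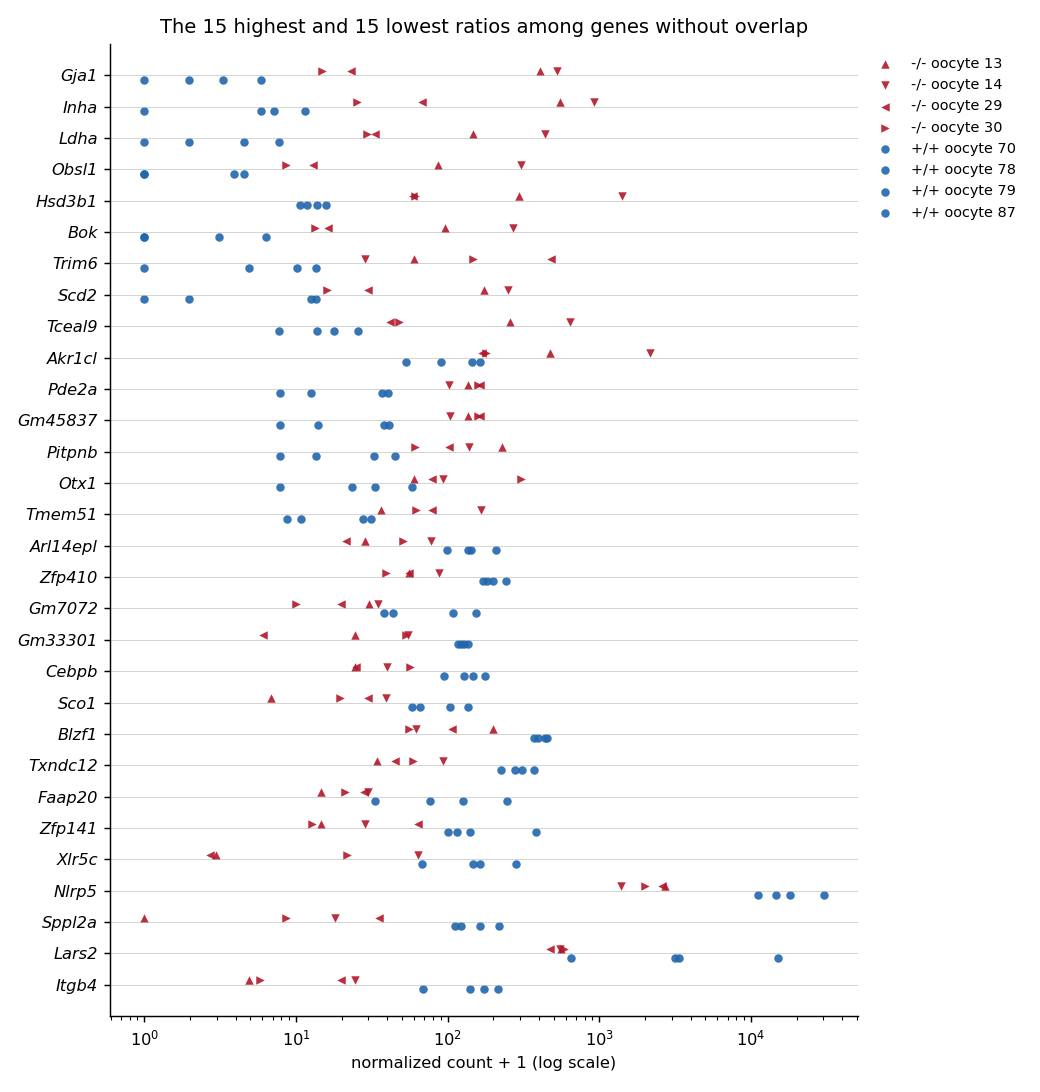
Normalized count plus 1 (x, log scale) in each of the 8 oocytes for the 15 highest and 15 lowest ratios among genes without overlap and with a mean of at least 50, with *Nlrp5*-/- oocytes as red triangles and *Nlrp5*+/+ oocytes as blue circles. From *Gja1* to *Akr1cl* most genes were highest in oocytes 13 and 14, *Pde2a* was level across the *Nlrp5*-/- oocytes, and *Lars2* spread widely among *Nlrp5*+/+ oocytes.

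Most listed oocyte RNAs had ratios within 2-fold. *Gdf9*, a growth factor secreted to the granulosa, was among the most abundant RNAs and had 70546, 70394, 63309 and 63834 in *Nlrp5*-/- against 42911, 49878, 43923 and 57033 in *Nlrp5*+/+ oocytes (log2 ratio 0.47, no overlap). Its partner *Bmp15* was at 27361 ± 4915 against 30137 ± 681 (-0.14). *Oosp1*, an oocyte-secreted protein and a staging marker, was at 4903, 7474, 7224 and 7929.9 against 11717, 13182, 10839 and 10191 (-0.74). Of the zona pellucida and sperm-binding genes, *Zp1*, a zona protein, had 13331, 12819.5, 15105 and 17145 against 7416, 7515, 8098 and 12403 (0.72), and *Astl*, the protease ovastacin that cleaves ZP2 and a staging marker, had 10067, 12189, 10325 and 11146 against 8017, 8215, 8433 and 7488 (0.44). Neither overlapped, whereas *Zp2* (-0.20) and *Zp3* (0.15) overlapped. Of the 7 genes of this list 2 (28.6%) were thus higher without overlap, beside 3.95% of all genes, and the median was 0.44. The staging marker *Astl* is in this count and its value is the median, so both are a description only. Only *Cd81*, a tetraspanin, was past 2-fold (1.45, with overlap). For *Zp1*, wild-type oocyte 87 was far nearer to the *Nlrp5*-/- range than the other 3. The 17 oocyte transcription factors that passed the filter had a median of 0.06, and none was past 2-fold or without overlap, a count near the shares of all genes (5.2% and 3.22% of all genes and, without overlap, 3.95% and 3.06% of all genes). *Figla* was at 0.40, or -0.24 without oocyte 14, and *Nobox* at 0.04. Of 21 maternal-effect genes, *Nlrp5* and *Dppa4* were lower without overlap and none was higher, beside 3.06% and 3.95% of all genes, and *Nlrp5* is the targeted gene, while *Dppa4* passed the filter through the wild-type oocytes alone and so had to be lower. *Dppa4*, a chromatin protein expressed in pluripotent cells, had 0, 1.41, 0 and 6.18 in *Nlrp5*-/- and 67.9, 80.3, 64.3 and 156 in *Nlrp5*+/+ oocytes (log2 ratio -5.0, or -5.93 without oocyte 30). It was thus nearly undetected in *Nlrp5*-/- oocytes while every wild-type oocyte held it, and *Dppa3* (Stella) was at -0.42 with overlap.

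DNA methylation genes had a median near 0. Of the 20 genes, none was 2-fold higher or lower (beside 5.2% and 3.22% of all genes) and none was without overlap (beside 3.95% higher and 3.06% lower), counts near these shares for a list of this size. Their median log2 ratio was 0.05. *Dnmt3l*, the cofactor that makes oocyte methylation possible, was at 1446 ± 285 against 1065 ± 232, *Dnmt3b*, a de novo methyltransferase, at 217 ± 68.3 against 158 ± 43.1, and the demethylase *Tet1* at 52.8 ± 15.2 against 90.5 ± 29.4. The 42 histone modification genes had a median of 0.00 and the 30 remodelling genes of -0.08, with 1 gene of each list (2.38% and 3.33%) at least 2-fold higher, beside 5.2% of all genes. They were *Kmt2a*, a histone H3 lysine 4 methyltransferase (2.04), and *Chd3*, a NuRD ATPase (1.22). *Zfp410*, a zinc finger protein known as an activator of *Chd4*, had 54.6, 86.1, 54.4 and 38.5 against 181, 198, 171 and 242 (-1.74, no overlap). *Chd4*, the remodelling ATPase of the NuRD complex, was at 629 ± 101 against 907 ± 204 (-0.53) with overlap.

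Several regulators of meiotic arrest and resumption were higher without overlap, mostly by less than 2-fold. Of 33 genes that passed the filter 8 were higher without overlap and none lower, beside 3.95% and 3.06% of all genes, although the list median was 0.00 (-0.04 with total-count scaling). At least 2-fold higher were 2 (6.06%), near the 5.2% of all genes, and none was lower. By oocyte the median was 0.30, 0.00, 0.30 and 0.14 in *Nlrp5*-/- and -0.04 to 0.00 in *Nlrp5*+/+ oocytes, highest in the shallow oocytes 13 and 29. The 8 were *Cdc20*, *Cdc25c*, *Ensa*, *Bub1b*, *Fzr1*, *Mapk3*, *Prkar1a* and *Aurka*. *Cdc20*, an activator of the anaphase-promoting complex, had 1358, 1179.8, 1278 and 1585 in *Nlrp5*-/- and 470.0, 416, 426 and 1127 in *Nlrp5*+/+ oocytes (1.15). Its other activator *Fzr1* (CDH1), which holds the oocyte in prophase, had 2351, 2817, 2268 and 2422 against 1767, 1098, 1415 and 2087 (0.63). In both genes wild-type oocyte 87 was the highest of its genotype. *Cdc25c*, a phosphatase that activates CDK1, had 215, 145, 163 and 169.6 against 65.1, 75.4, 81.2 and 111 (1.05). The MAP kinase *Mapk3* had 2792, 1976, 2413 and 2467 against 1515, 1593, 1727 and 1613 (0.58), and the checkpoint kinase *Bub1b* 12418, 8627, 11778 and 14208 against 7836, 6302, 7929 and 8025 (0.64). *Cdc25c* was clear of the wild-type range in every oocyte, and *Bub1b* in oocyte 14 only by a narrow margin. The other 3 were *Ensa* (0.68), an inhibitor of the phosphatase PP2A, *Prkar1a* (0.48), a regulatory subunit of protein kinase A, and *Aurka* (0.35), a spindle kinase, with narrow gaps for the last pair. *Cdk1*, the kinase at the centre of the pathway, was at 1661 ± 117 against 1943 ± 162 (-0.23), and *Mastl*, which acts on *Ensa*, at 2284 ± 863 against 2686 ± 732 (-0.23), both with overlap. All 8 kept their direction under each scaling and without oocytes 13 and 14, in the latter case with log2 ratios between 0.32 (*Aurka*) and 1.23 (*Cdc20*). Of 31 kinesins, *Kif13a*, a vesicle motor, was higher (43.3 to 83.9 against 8.41 to 39.1) and *Kif3b*, a subunit of kinesin 2, lower (37.1 to 139 against 144 to 263) without overlap, 3.23% each, beside 3.95% and 3.06% of all genes.

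Some chaperone genes were higher in *Nlrp5*-/- oocytes. Of 76 chaperone genes that passed the filter, 8 (10.5%) were higher and 2 (2.63%) lower without overlap, beside 3.95% and 3.06% of all genes, so the share of lower genes was near that of all genes. Of the 76, 2 passed with a wild-type mean under 10 and so had to be higher, among them *Hspa1b* of the 8. At least 2-fold higher were 4 (5.26%) and lower 2 (2.63%), near the 5.2% and 3.22% of all genes. The median was 0.07. The inducible HSP70 gene *Hspa1b* had 35.1, 56.4, 44.2 and 61.8 in *Nlrp5*-/- and 18.2, 0.979, 15.3 and 0.967 in *Nlrp5*+/+ oocytes (log2 ratio 2.35), and *Hspbp1*, an HSP70 nucleotide exchange factor, 25.4, 84.7, 42.5 and 37.1 against 11.2, 15.7, 3.06 and 13.5 (2.03). The near-identical *Hspa1a* had 7.55 to 33.9 against 0 to 12.6, and reads of the 2 copies may be split between them. Abundant members differed less but evenly. *Hsph1* (HSP110), the staging marker among the 8, had 4126, 4205, 4540.4 and 5224 against 2999, 2961, 4034 and 3082 (0.47), and *Dnajb1* (HSP40) 1623, 1837, 1963 and 1729 against 1145, 819, 1569 and 1252 (0.58). The HSP70 to HSP90 adaptor *Stip1* was at 0.42, the mitochondrial HSP70 *Hspa9* at 0.30, *Dnajc5* at 0.64 and *Dnajc9* at 0.49, which completes the 8. *Hspb1* (HSP27) had 58.5, 259, 131 and 269 against 104, 19.6, 5.36 and 31.9 and overlapped through wild-type oocyte 70. Its log2 ratio was 2.13, or 3.17 without oocyte 70. *Dnajc5b* and *Dnajc5g* were at -1.28 and -1.07 with overlap. The 2 lower genes were *Dnajc15* and *Dnajc21*, cofactors of HSP70. The 8 higher genes kept their direction under each scaling and without oocytes 13 and 14, in the latter case from 0.32 (*Hspa9*) to 2.46 (*Hspa1b*).

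Heat shock factors bind inverted repeats such as GAANNTTC, whose letters were searched on both strands of the 250 bases before each start in the RefSeq promoters (GRCm38.p6). They stood before 7.73% of 27025 genes with a promoter there and 6.32% of those that passed the filter, before 11 of 61 chaperone genes (18%) and before 1 of the 6 promoters matched for the 8 higher without overlap. The 2 promoters shown are those of the chaperones with the highest ratios, *Hspa1b* (chr17:34959239-34959488, minus strand) and *Hspb1* (chr5:135887669-135887918, plus strand), with matches in capitals.
Hspa1b: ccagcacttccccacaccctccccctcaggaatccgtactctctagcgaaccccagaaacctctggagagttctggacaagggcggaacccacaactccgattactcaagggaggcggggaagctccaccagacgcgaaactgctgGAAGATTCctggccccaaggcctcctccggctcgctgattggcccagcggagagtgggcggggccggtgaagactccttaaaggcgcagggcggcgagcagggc
Hspb1: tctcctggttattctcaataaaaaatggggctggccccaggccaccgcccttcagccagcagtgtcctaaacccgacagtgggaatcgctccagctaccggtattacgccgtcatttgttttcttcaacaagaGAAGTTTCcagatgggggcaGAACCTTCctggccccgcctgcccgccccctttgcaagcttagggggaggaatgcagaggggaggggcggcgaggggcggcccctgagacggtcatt
A match describes the letters only. *Hspb1* holds 2 matches, and *Hspa1b*, the one of the pair without overlap between genotypes, holds 1.

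Ribosomal protein genes differed between oocytes of the same genotype more than between genotypes. The 83 cytoplasmic ribosomal protein genes had a median log2 ratio of 0.05, which turned to -0.57 without oocyte 14 and -0.48 without oocytes 13 and 14, and their median in single *Nlrp5*-/- oocytes was -0.83, 1.01, -0.84 and -0.15 over the wild-type mean, while wild-type oocytes lay at -0.18 to 0.22. Oocyte 14 was high and 13 and 29, the 2 shallowest libraries, were low. The part of depth was not tested. *Rpl9* had 400.0, 1588, 246 and 303 against 266, 277, 229.8 and 250.4, so its log2 ratio of 1.31 was 0.31 without oocyte 14. The paralogue *Rpl39l* was lower without overlap (419 to 858 against 868 to 1159). Mitochondrial ribosomal proteins were likewise low in 13 and 29 and highest in 14 (-0.45, 0.21, -0.40 and -0.11 by oocyte), with a list median of -0.14. Of 78 genes, 5 (6.41%) were lower and none higher without overlap, beside 3.06% and 3.95% of all genes. Among them were *Mrps31* with 244, 155, 187 and 248 against 353, 432, 404 and 465 (-0.99) and *Mrpl53* with 64.4, 98.8, 71.4 and 72.1 against 188, 115, 158 and 217 (-1.13). Of 37 aminoacyl-tRNA synthetases, which charge tRNAs, 3 (8.11%) were higher and 3 lower without overlap, beside 3.95% and 3.06% of all genes. The cytoplasmic enzymes for methionine (*Mars1*, 0.52), glutamine (*Qars*, 0.51) and serine (*Sars*, 0.39) were higher. Those for arginine (*Rars*, -0.80) and threonine (*Tars*, -0.58) and the mitochondrial *Lars2* were lower. *Rars* had 823, 699, 1237 and 1039 against 1493, 1556, 1931 and 1638, so every *Nlrp5*-/- oocyte lay below the wild-type range.

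In energy metabolism, some glycolysis genes were higher and nuclear respiratory chain genes had a median near 0. Of 18 glycolysis and lactate genes that passed the filter, 4 (22.2%) were at least 2-fold higher and none lower, beside 5.2% and 3.22% of all genes. *Ldha*, 1 of the 4, passed with a wild-type mean under 10 and so had to be higher. With oocytes 29 and 30 alone 2 were higher and 1 lower. The list had a median of 0.30 (0.22 without oocytes 13 and 14). *Ldha*, which interconverts pyruvate and lactate (chr7:46841475-46855627, plus strand), had 146, 435, 32.3 and 28.2 in *Nlrp5*-/- and 3.50, 0.979, 0 and 6.77 in *Nlrp5*+/+ oocytes, and its log2 ratio of 5.41 was 3.06 without oocytes 13 and 14, 4.19 without 14 alone and 6.0 without 87. *Pfkm*, a phosphofructokinase that sets the rate of glycolysis, was level across *Nlrp5*-/- oocytes at 299, 203, 253 and 268 against 104, 82.2, 91.9 and 159 (1.21, no overlap). *Pfkl* (1.14) and *Pgam1* (1.15) overlapped, and without oocytes 13 and 14 they were at 0.74 and 0.47. Of the 2 *Ldha* starts in RefSeq, the 250 bases before the first (chr7:46845554-46845803, plus strand) are shown because they hold a match to the cAMP response element TGACGTCA, in capitals, which 1.77% of genes with a promoter hold.
Ldha: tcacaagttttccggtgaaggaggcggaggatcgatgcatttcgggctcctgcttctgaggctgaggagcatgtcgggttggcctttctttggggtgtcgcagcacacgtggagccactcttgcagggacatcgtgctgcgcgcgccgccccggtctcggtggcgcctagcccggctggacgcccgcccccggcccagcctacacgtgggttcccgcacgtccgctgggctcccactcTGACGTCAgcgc
The same 8 letters stood before 3 of the 141 matched promoters of genes at least 2-fold higher without overlap (2.13%), beside 2.92% of the 10324 of genes that passed the filter. *Idh2*, a mitochondrial isocitrate dehydrogenase, had 58.5, 67, 25.5 and 11.7 against 2.10, 0.979, 0 and 8.70, and *Cpt1a*, which admits fatty acids to mitochondria, 21.5, 90.3, 18.7 and 6.18 against 0, 4.89, 2.30 and 0.967. Both were scarce in wild-type oocytes and highest in oocyte 14. They passed the filter with a wild-type mean under 10 and so had to be higher. *Idh2* was at 3.40, or 4.35 without oocyte 87, and *Cpt1a* at 3.53, or 2.42 without 14. Without oocytes 13 and 14 they were at 2.33 and 2.17. The fatty acid oxidation list had a median of 0.16, or -0.10 without oocytes 13 and 14.

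The 77 nuclear subunits of oxidative phosphorylation had a median of -0.10, with none past 2-fold, beside 5.2% and 3.22% of all genes, and again a low median in oocytes 13 and 29 (-0.64, 0.37, -0.60 and -0.01 by oocyte). The 13 mitochondrially encoded genes ran the other way, at 0.70, -1.35, 0.13 and -0.07 by oocyte, and wild-type oocytes spanned -0.75 to 0.24. *mt-Atp6*, a subunit of ATP synthase, had 310.2, 7.76, 285 and 303 in *Nlrp5*-/- and 39.2, 25.4, 32.9 and 93.8 in *Nlrp5*+/+ oocytes. Oocytes 13, 29 and 30 were level and above every wild-type oocyte, and oocyte 14 was below all of them. Its neighbour *mt-Atp8*, at lower counts, was also high in 13, 29 and 30 and low in 14 (25.4, 3.53, 25.5 and 21.3 against 7.0, 4.89, 2.30 and 15.5). It passed the filter with a wild-type mean under 10, so its *Nlrp5*-/- mean had to be higher. *mt-Co1*, the most abundant of those named, was at 6522 ± 2277 against 9720.4 ± 2957.

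**Figure D3:**
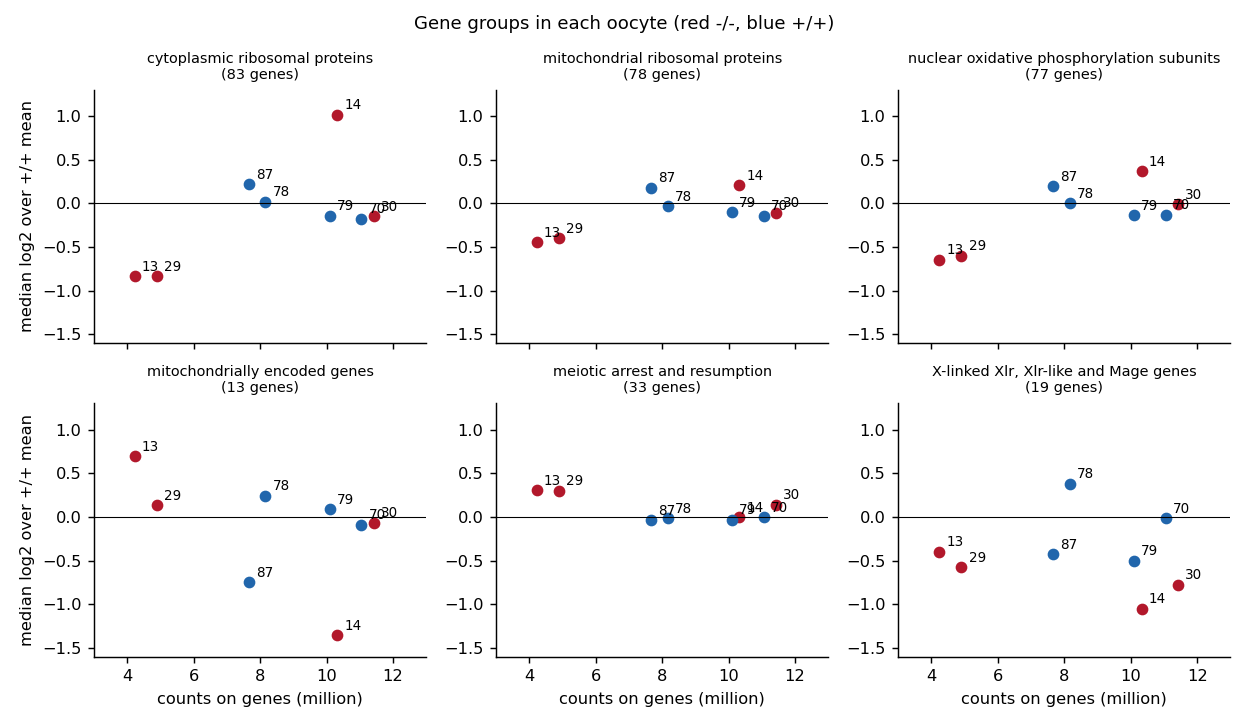
Median log2 value of the members of 6 gene groups in each oocyte, over the mean of the 4 *Nlrp5*+/+ oocytes (y), against the counts on genes of its library, from 4225037 to 11416257 (x), with *Nlrp5*-/- in red and *Nlrp5*+/+ in blue. Ribosomal protein genes were low in the 2 shallow oocytes 13 and 29 and high in oocyte 14, mitochondrially encoded genes were high in 13 and low in 14, and X-linked *Xlr* and *Mage* genes were below the wild-type mean in all 4 *Nlrp5*-/- oocytes but also in wild-type oocytes 79 and 87.

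Among membrane transporters, more genes were higher than lower without overlap, but the shares past 2-fold were near those of all genes. Of 215 solute carriers, 15 (6.98%) were higher and 2 (0.93%) lower without overlap, beside 3.95% and 3.06% of all genes. At least 2-fold higher were 15 (6.98%) and lower 8 (3.72%), beside 5.2% and 3.22% of all genes. Of the 215, 10 passed the filter with a wild-type mean under 10 and so had to be higher, among them *Slc16a6*, *Slc6a12* and *Slc38a2*. Another 4 passed with an *Nlrp5*-/- mean under 10 and so had to be lower. The median was 0.10 (0.07 without oocytes 13 and 14). *Slc16a6*, a monocarboxylate transporter, had 33.2, 45.2, 102 and 55.6 in *Nlrp5*-/- and 0, 8.81, 16.9 and 0 in *Nlrp5*+/+ oocytes, and *Slc6a12*, a betaine and GABA carrier, 29.3, 39.5, 66.3 and 23.3 against 0, 0, 2.30 and 4.83. Both were highest in oocyte 29. Their log2 ratios were 3.02, or 3.92 without oocyte 79, and 3.87, or 4.52 without oocyte 87. *Slc38a2*, a glutamine carrier, had 50.7, 84.7, 22.1 and 6.18 against 2 counts in all over the wild-type oocytes, a ratio of 101 with an exact 95% counting interval from 27.6 to 843. Its log2 ratio of 4.96 was 4.29 without oocyte 14 and 3.55 without oocytes 13 and 14. *Slc35a2*, the Golgi carrier of UDP-galactose, was lower without overlap (13.7 to 26.8 against 36 to 73.5). *Kcna1*, a voltage-gated potassium channel, had 9.76, 66.3, 8.50 and 75.5 against 3.50, 0, 0 and 3.87 (3.85). It too passed with a wild-type mean under 10 and so had to be higher. *Calb1*, which buffers cytoplasmic calcium, had 265, 145, 248 and 192 against 76.3, 73.4, 44.4 and 54.1 (1.76), and stayed within 1.5-fold of that ratio when any 1 oocyte was left out.

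Few vesicle traffic genes were past 2-fold. Of 191 genes, 5 (2.62%) were at least 2-fold higher and 5 lower, beside 5.2% and 3.22% of all genes. Without overlap 4 (2.09%) were higher and 10 (5.24%) lower, beside 3.95% and 3.06% of all genes, with a median of 0.06. *Arf6*, a GTPase of membrane recycling and cortical actin, had 160.0, 279, 148 and 294 in *Nlrp5*-/- and 656, 494, 502 and 574 in *Nlrp5*+/+ oocytes (-1.33). *Rab11fip2*, an effector of recycling endosomes, had 54.6, 48, 34 and 57.7 against 79.9, 87.1, 152 and 90.9 (-1.06). With *Blzf1* they were the lowest members without overlap. *Vps37c*, a subunit of the ESCRT-I sorting complex, was the highest of them, at 425, 465, 547 and 487 against 237, 137, 195 and 274 (1.19). Among cytoskeletal genes, *Tpm3*, a tropomyosin that stabilizes actin, had 87.8, 120.0, 68 and 70.04 against 183, 204, 404 and 320.0 (-1.67). *Nup37*, a nuclear pore subunit, had 767, 675, 613 and 530.1 against 1535, 1831, 1163 and 1000.5 (-1.10). Neither gene overlapped between the genotypes.

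Among zinc finger genes and X-linked germ cell genes, more were at least 2-fold lower than higher. Of 299 *Zfp* genes, 26 (8.70%) were at least 2-fold lower and 10 (3.34%) higher, beside 3.22% and 5.2% of all genes. Without overlap 10 (3.34%) were lower and 6 (2.01%) higher, beside 3.06% and 3.95%, so by this measure the lower share was near that of all genes. Of the 299, 7 passed with an *Nlrp5*-/- mean under 10 and so had to be lower, and 4 with a wild-type mean under 10. The median was -0.10. *Zfp141* had 13.7, 27.5, 62.9 and 11.7 in *Nlrp5*-/- and 114, 139.9, 383 and 99.6 in *Nlrp5*+/+ oocytes, a log2 ratio of -2.63, or -1.99 without wild-type oocyte 79 and -3.32 without oocyte 29. *Zfp994* (9.76 to 30.6 against 30.9 to 91.1, a narrow gap) and *Zfp512* (32.3 to 78 against 106 to 195) were also lower, and *Zfp710* (29.3 to 83.8 against 8.42 to 27.3) and *Zfp428* (70.2 to 119 against 19.6 to 45.4) higher, all 4 without overlap. Many *Zfp* genes have near-identical repeats, so their counts are less certain. *Xlr* genes are X-linked relatives of a synaptonemal complex protein. In the *Xlr* and *Mage* list 19 of 79 genes passed the filter, of which 6 (31.6%) were at least 2-fold lower and 2 (10.5%) higher, beside 3.22% and 5.2% of all genes. *Dcaf8l*, 1 of the 6, passed with an *Nlrp5*-/- mean under 10 and so had to be lower. The list had a median of -0.51 against 0.01 over all genes. By oocyte it was -0.40, -1.05, -0.58 and -0.77 in *Nlrp5*-/- and -0.50 to 0.38 in *Nlrp5*+/+ oocytes, which overlap. *Xlr5c* had 1.95, 62.8, 1.70 and 20.6 in *Nlrp5*-/- and 163, 283, 66.6 and 146 in *Nlrp5*+/+ oocytes (-2.86, or -4.18 without oocyte 14 and -3.77 without 13 and 14), and *Xlr4b* 150.2, 93.8, 155 and 169.6 against 318, 376, 270.4 and 225 (-1.06). *Xlr4a*, *Xlr5a* and *Xlr5b* were at -1.33, -2.39 and -2.04 with overlap, and without oocyte 78 *Xlr5a* was at -1.59 and *Xlr5b* at -1.11, the latter at -2.91 without oocyte 30 and -1.40 without 13 and 14. These genes are near-identical copies whose reads may be split, so single values are uncertain. *Dcaf8l*, also X-linked, had 34.3, 32.3, 101 and 15.5 in *Nlrp5*+/+ oocytes and 1 count in all over *Nlrp5*-/- oocytes, a ratio of 191 for wild type with an interval from 33.9 to 7571. Its log2 ratio of -5.31 was -4.55 without wild-type oocyte 79. The 439 genes of the X chromosome had a median of -0.07, close to that of all genes. Imprinted genes had a median of -0.07. *Kcnq1ot1*, an imprinted noncoding RNA, had 42.9, 85.4, 34 and 141 against 90.4, 224, 796 and 67.7, and its log2 ratio of -1.94 was -0.74 without oocyte 79.

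Signalling genes of the follicle gave a divided picture. *Acvr1*, a receptor for BMP and activin ligands, had 0, 9.17, 11.9 and 10.3 in *Nlrp5*-/- and 52.5, 16.6, 99.6 and 59 in *Nlrp5*+/+ oocytes (-2.71), low in all 4 *Nlrp5*-/- oocytes. It passed with an *Nlrp5*-/- mean under 10 and so had to be lower. *Id3*, a target of BMP signalling and a staging marker, had 377, 1509, 309 and 654 against 259.9, 258, 536 and 346, highest in oocyte 14 (1.02, or 0.35 without it). *Fst* (follistatin), which binds activin, had 66.3, 121, 0 and 7.55 and no count in any wild-type oocyte, so it had to be higher. Set against a floor of 3 counts over the group it was at least 77.7-fold higher, mostly through oocytes 13 and 14. Its log2 ratio of 5.63 was 4.62 without oocyte 14 and 2.34 without both. Of 13 immediate early genes that passed the filter, 5 (38.5%) were at least 2-fold higher and 3 (23.1%) higher without overlap, beside 5.2% and 3.95% of all genes. But 3 of the 13 passed with a wild-type mean under 10 and so had to be higher, and these counts are a description only. The median was 0.60, or 0.34 without oocytes 13 and 14. *Socs3*, a feedback inhibitor of cytokine receptors, had 91.7, 95.3, 131 and 143 against 87.6, 48.9, 35.2 and 39.6 (1.11), with oocyte 70 just below the *Nlrp5*-/- range. *Mycl* had 37.1, 213, 8.50 and 6.18 and 2 counts in all over wild-type oocytes, a ratio of 202 with an interval from 55.4 to 1674, and its log2 ratio of 5.56 was 3.64 without oocyte 14 and 2.61 without oocytes 13 and 14. Among redox genes, the glutathione transferases *Gstm1* (25.4, 98.8, 23.8 and 20.6 against 0.7, 0, 0 and 2.90) and *Mgst1* (42.9, 50.8, 54.4 and 14.4 against 12.6, 11.7, 0 and 4.83) were higher without overlap. Both passed the filter with a wild-type mean under 10 and so had to be higher, as did 5 of the 38 redox genes in all. Of the 38, 4 (10.5%) were higher without overlap and none lower, where 3.95% of all genes were higher. These counts are a description only, and the list median was -0.01. *Gstm1* was highest in oocyte 14 (4.50, 3.64 without 14, 3.66 without 13 and 14 and 5.12 without 87), and *Mgst1* was of similar size in oocytes 13, 14 and 29.

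Some genes of other ovarian cells were higher in *Nlrp5*-/- oocytes, granulosa markers above all in oocytes 13 and 14, at low levels next to oocyte genes. Fewer cells of a type and less RNA per cell cannot be told apart in such libraries. Summed over the whole list, the 20 granulosa cell markers lay at 547, 990.5, 324 and 359 CPM in *Nlrp5*-/- and at 311 to 498 CPM in *Nlrp5*+/+ oocytes. Oocytes 13 and 14 were above the wild-type range and oocytes 29 and 30 within it. Oocyte 15, outside the comparison and of the same first index as 13 and 14, lay at 2357 CPM, and the part of index was not tested. In wild-type oocytes most of the sum came from 5 of the markers. The other 15, which had under 50 normalized counts in wild-type oocytes and were set apart after their values were seen, summed to 242, 598, 41 and 23.7 CPM against 9.31 to 16.6 CPM, so in these 29 and 30 were also above every wild-type oocyte. As they were chosen for low wild-type values, this is a description only. Of the 20, 18 had a higher mean in *Nlrp5*-/- oocytes. The filter was passed by 16, of which 7 had a wild-type mean under 10 and so had to be higher, and the median over the 16 is a description only. It was 2.41, or 1.14 without oocyte 14 and 0.26 without oocytes 13 and 14. *Hsd17b1*, which makes oestradiol in granulosa cells, had 139, 335, 1.70 and 8.93 against 3.50, 0, 0 and 0, and *Ccnd2*, a cyclin of dividing granulosa cells, 339, 578, 116 and 22.7 against 44.1, 47, 12.3 and 35.8. Both were high in 13 and 14 and overlapped with wild type in 29 or 30. Without oocyte 14 alone *Hsd17b1* was at 4.73 in place of 6.02 and *Ccnd2* at 2.16 in place of 2.89, and without oocytes 13 and 14 they were at 1.79 and 0.97. Without wild-type oocyte 70 *Hsd17b1* was at 6.86. The 12 stroma, smooth muscle and vessel markers that passed the filter, 6 of them with a wild-type mean under 10, had a median of 1.59, 1.11 without oocyte 14 and 1.69 without oocytes 13 and 14, with 0.28 to 2.73 over all settings tried, and their sums ran from 159 to 234 CPM against 138 to 188. *Vim*, an intermediate filament of mesenchymal cells, had 41, 153, 64.6 and 39.8 against 16.8, 2.94, 0.766 and 0, and *Acta2*, smooth muscle actin, 33.2, 144, 76.5 and 70.04 against 30.8, 0, 2.30 and 0. Here oocytes 29 and 30 were higher than all wild-type oocytes as well, and oocyte 70 was the highest of its genotype. Both genes passed the filter with a wild-type mean under 10 and so had to be higher, and their values are a description only. *Vim* was at 3.63, or 5.05 without oocyte 70 and 3.0 without 14, and *Acta2* at 3.14, or 5.50 without 70. Summed theca and interstitial markers lay at 18.9, 74.9, 12.2 and 27.5 CPM against 12.9 to 25.6 CPM, so oocyte 29 was below every wild-type oocyte, and their median of 1.22 over 6 genes was 0.04 without oocyte 14 and -0.52 without oocytes 13 and 14. Sums of surface epithelium markers lay at 4.73 to 27 against 1.44 to 7.11 CPM, and blood and immune markers at 40.9 to 80.3 against 24.4 to 67.5 CPM. Of the blood list *Adgre1*, *Cd79a* and *C1qc* had no count in any of the 8 oocytes, and the median of 1.07 over 4 genes was 0.11 without oocyte 14 and 0.20 without oocytes 13 and 14. The part of these cells in the other results was not tested. Without oocytes 13 and 14 the *Xlr* and *Mage* median was -0.53 and the *Zfp* median -0.11.

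**Figure D4:**
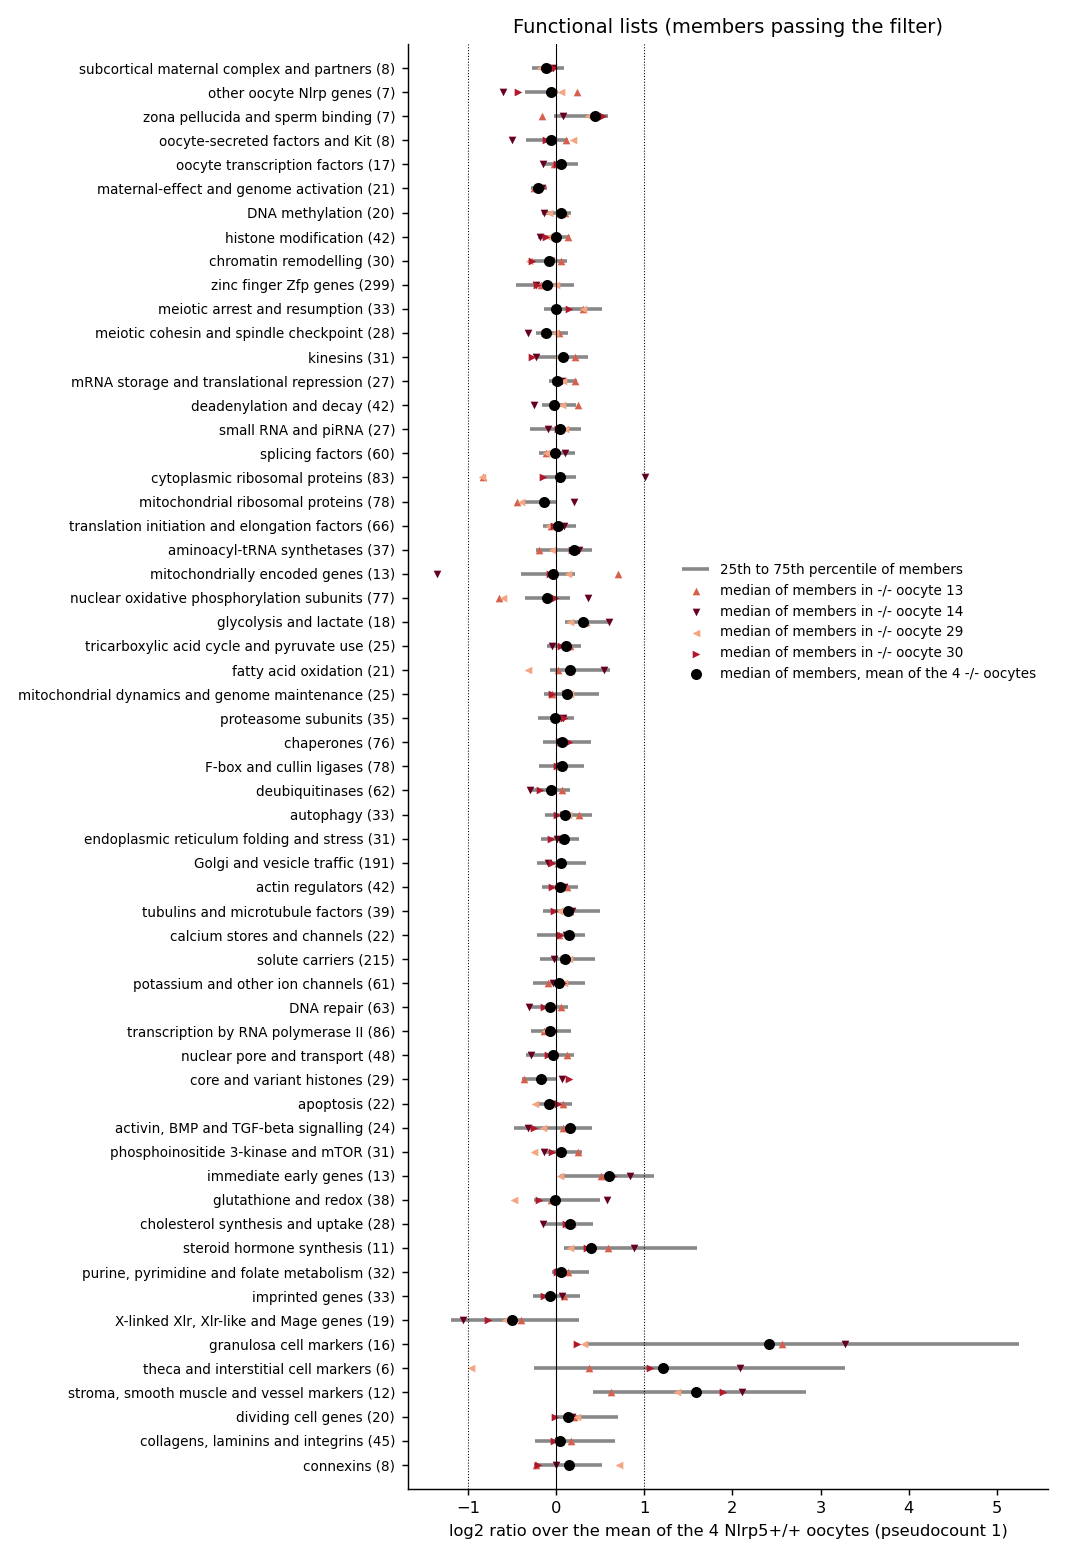
Log2 ratio over the mean of the 4 *Nlrp5*+/+ oocytes (x) for lists of genes by function (y), with the number of members that passed the filter in brackets; black circles are medians of the members, grey bars the 25th to 75th percentile and triangles the medians in single *Nlrp5*-/- oocytes. Most black circles lie near 0, marker lists of other ovarian cells lie to the right, in part through genes that passed the filter only in *Nlrp5*-/- oocytes, and the *Xlr* and *Mage* list lies to the left.

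Across the 61 lists, 51 had a median within 0.25 of 0 on the log2 scale and 9 had no member past 2-fold. Grouping genes by the letters of their symbol gave 83 families of at least 15 members, of which 82 had a median within 0.25 of 0. The lowest were *Mrpl* (-0.21), large mitochondrial ribosomal subunits, *Mettl* (-0.14), methyltransferase-like proteins, *Timm* (-0.14), the inner mitochondrial import machinery, and *Med* (-0.12), the Mediator complex. The highest were symbols of *B* and a number (0.32), a mixed set, *Col* (0.23), mostly collagens, *Stk* (0.22), serine/threonine kinases, and *St* (0.20). All of these are shifts far under 2-fold. Chromosome medians ran from -0.08 (chromosome 13) to 0.06 (chromosome 8), and the 5 bins of gene span from -0.05 for the longest genes to 0.05. The 45 genes within 2 Mb of *Nlrp5* that passed the filter had a median of 0.13, with 3 (6.67%) at least 2-fold higher and none lower, beside 5.2% and 3.22% of all genes, and 2 higher and 2 lower (4.44% each) without overlap. With oocytes 29 and 30 alone their median was -0.16, with 3 at least 2-fold higher and 7 lower.

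The remaining 3 *Nlrp5*-/- (7, 15 and 31) and 6 *Nlrp5*+/+ oocytes (69, 72, 77, 80, 85 and 86) share no cell with the 8 and were compared without regard to stage. They are not independent of the 8 in their libraries, since oocyte 15 shares its first index with 13 and 14, oocyte 31 with 29 and 30, and all 6 *Nlrp5*+/+ oocytes with compared *Nlrp5*+/+ oocytes. A staging score, the mean log2 level of the NSN minus that of the SN markers, also moved with genotype there, with ranges that overlap, at -4.21 to -2.94 (median -3.85) in *Nlrp5*-/- and -5.27 to -4.07 (median -4.77) in *Nlrp5*+/+ oocytes. In the 8 NSN oocytes it was -3.13 to -1.99 (median -2.84) and -3.23 to -2.86 (median -3.05). The part of index and stage in the values that follow was not tested. Of the 186 genes at least 2-fold higher without overlap, 176 were measured there, 167 (94.9%) were in the same direction, beside 55.2% of all genes, and 102 (58%) were at least 2-fold higher, beside 12.7% of all 13360 genes measured. Without oocyte 15 this was 65 of 176 (36.9%), beside 4.90%. Of the 152 lower genes, 139 were measured, 110 (79.1%) were in the same direction, beside 44.8%, and 51 (36.7%) at least 2-fold lower, beside 5.7%. Without oocyte 15 this was 66 of 139 (47.5%), beside 5.61%. No overlap was seen for 38 of the 176 and 39 of the 139, beside 5.16% and 5.6% of all genes. In both directions the share past 2-fold was above that of all genes, by counts alone. *Nlrp5* was at -2.61 there, *Itgb4* at -2.68, *Blzf1* at -1.92, *Txndc12* at -1.47, *Dppa4* at -3.02 and *Acvr1* at -2.36, all without overlap. All 6 were thus lower in these oocytes too. *Pde2a* (2.57), *Slc16a6* (2.62) and 4 of the 8 chaperones, *Hspa1b* (2.66), the staging marker *Hsph1* (1.09), *Dnajb1* (0.80) and *Dnajc5* (0.73), were higher there too, all but *Pde2a* without overlap. The other chaperones of the 8 overlapped, with *Hspbp1* at 2.38, or 0.54 without oocyte 15, *Stip1* at 0.35, *Hspa9* at 0.13 and *Dnajc9* at -0.05. Follicle genes depended on oocyte 15, with *Hsd3b1* at 7.39, or 3.25 without it, and *Bok* at 5.16, or 0.53. Other genes did not keep their direction, in part through oocyte 15. *Arl14epl* was at 0.99, *Calb1* at -0.62 and *mt-Atp6* at -4.65, and without oocyte 15 at 1.09, -0.23 and -4.13. *Lars2* was at 0.24 with oocyte 15 and at -0.62, lower again, without it. *Arf6* was at 0.37 with and -0.09 without it, and *Otx1* at -0.17 and 0.02. Of the meiotic regulators, *Fzr1* was higher without overlap (0.62), *Cdc20* (0.35), *Mapk3* (0.36), *Bub1b* (0.40), *Ensa* (0.31) and *Cdc25c* (0.22, or -0.32 without oocyte 15) overlapped, and *Prkar1a* (0.00) and *Aurka* (-0.07) were near 0. In the 16 *Nlrp5*+/- oocytes, *Nlrp5* had 5062 to 13473 normalized counts with a median of 7978, and *Dppa4* 19.9 to 262 with a median of 83.7, on a scale set over all 33 oocytes.

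**Figure D5:**
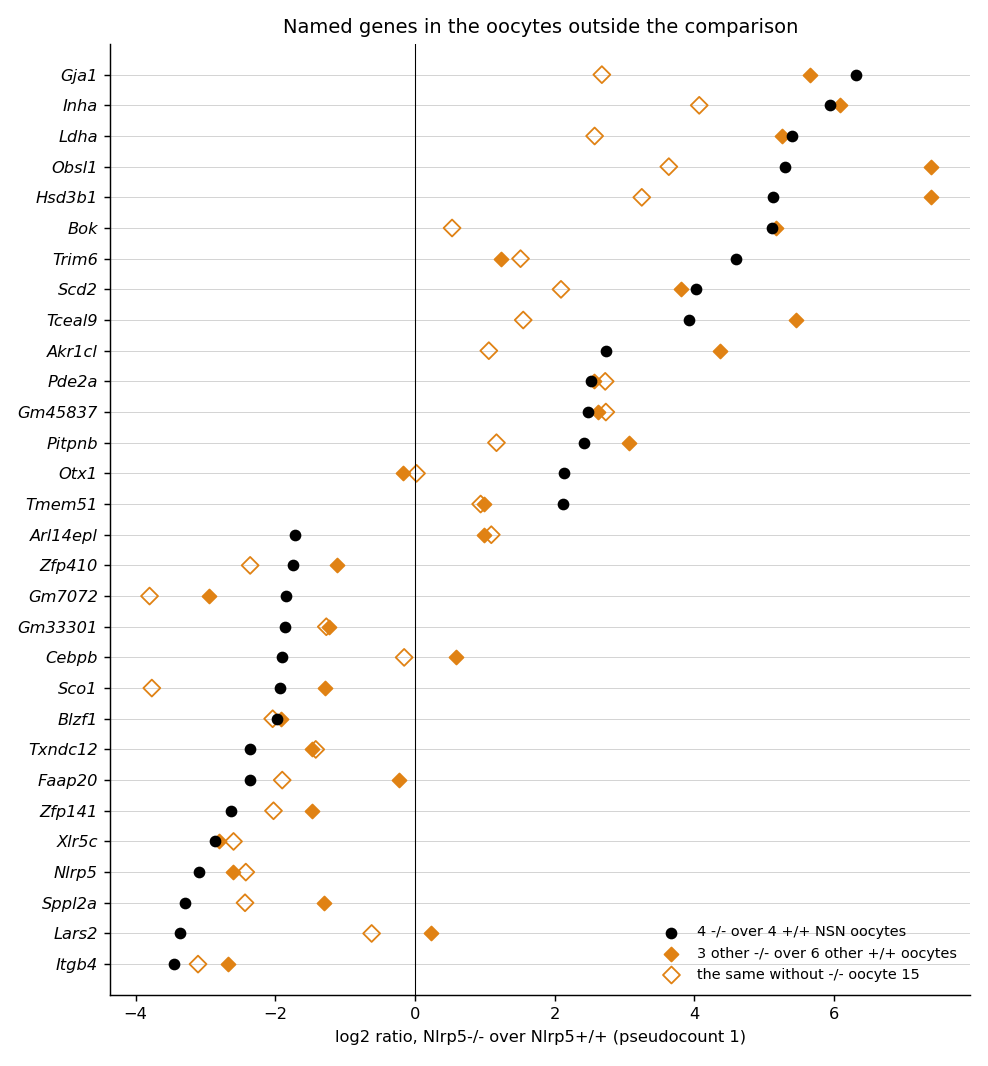
Log2 ratio of *Nlrp5*-/- over *Nlrp5*+/+ (x) for the 30 named genes (y) in the 8 NSN oocytes (black), in the 3 other *Nlrp5*-/- against the 6 other *Nlrp5*+/+ oocytes (filled orange) and in the latter without oocyte 15 (open orange). *Nlrp5*, *Itgb4*, *Blzf1*, *Txndc12* and *Pde2a* keep their side with and without oocyte 15, *Arl14epl* changes side in both, and *Lars2*, *Cebpb* and *Otx1* change side only where oocyte 15 is included.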

How the data were processed

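Single-oocyte RNA was captured apart from DNA, amplified with Smart-seq2 and sequenced as paired reads without molecular identifiers. The authors used Trim Galore for trimming, HISAT2 for alignment and SeqMonk for counting per gene, left out libraries below a read minimum and deposited the raw count table, whose coordinates are of GRCm38. The methods name GRCm39. The annotation release and strand setting are not given in the sources used here, so antisense and overlapping genes cannot be told apart. The authors' tables of called genes, which hold fold changes and p-values, were not used.

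Of 35373 table entries, 52 repeats were left out. Every count column matched an oocyte with a labelled genotype. Counts were divided by median-of-ratios size factors over the 8 oocytes, averaged with equal weight and compared as log2 ratios with a pseudocount of 1, for 13935 genes with a mean of at least 10 of 23733 with any count. The functions were tested on simulated data. Among counts from 1 to 20, 68.4% were odd, and the cause was not tested. Poisson intervals and floors cover counting error only. The members and the gene lists were chosen with earlier results of these data known. The genes named are *Nlrp5*, the 15 highest and 15 lowest ratios among genes with a mean of at least 50 and no overlap, and up to 4 of the highest and of the lowest members of the lists described, with their defining members. Not every list has its extreme members named. List members named for a lack of overlap, *Chd4* and the promoter motifs were chosen after their values were seen. Alternatives were scaling by total count or TMM (edgeR 4.0.16), a pseudocount of 5, medians over oocytes, no filter or a mean of at least 100, leaving out each oocyte, and leaving out oocytes 13 and 14. Python 3.11.15, numpy 2.4.6, pandas 2.3.3 and R 4.3.3 were used.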

Additional observations from a re-analysis of the deposited data

Results flagged for a closer look

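Within the groups of 4 oocytes, 21 of 284 groups tested (7.39%) had 1 oocyte whose gap to the nearest other was past Dixon's 95% limit for its share of the group's range, where chance gives about 1 in 20. Values are normalized counts. *Nlrp5*+/+ oocyte 70 was the low one for *Npm2* (6043). *Nlrp5*+/+ oocyte 78 was the high one for *Xlr5b* (125). *Nlrp5*+/+ oocyte 78 was the low one for *Kit* (4598) and *Bub1b* (6302). *Nlrp5*+/+ oocyte 79 was the high one for *Zfp141* (383), *Hsph1* (4034), *Rab11fip2* (152) and *Gjb2* (255). *Nlrp5*+/+ oocyte 87 was the high one for *Zp1* (12403), *Cdc20* (1127), *Qars* (2672) and *Sars* (669). *Nlrp5*-/- oocyte 13 was the high one for *Sars* (909). *Nlrp5*-/- oocyte 13 was the low one for *Slc35a2* (13.7). *Nlrp5*-/- oocyte 14 was the high one for *Akr1cl* (2163), *Rpl9* (1588), *Star* (42.3), *Mycl* (213) and *Gstm1* (98.8). *Nlrp5*-/- oocyte 14 was the low one for *mt-Atp6* (7.76). *Nlrp5*-/- oocyte 30 was the high one for *Otx1* (304). No explanation was tested.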

How the results depend on the processing

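No paired analysis was possible because the labels' replicate numbers run through all oocytes of a genotype and mark no shared mouse, and no test was made. Of the gene counts under other settings, 41 of 56 stayed within 1.5 times. With no filter on low counts 2644 genes were at least 2-fold higher and 1800 lower. With a mean of at least 100 these were 107 and 74, and 283 genes were lower without overlap. Without oocytes 13 and 14, 807 genes were at least 2-fold lower, and 1478 were higher and 1271 lower without overlap, in part because fewer oocytes overlap less often. Leaving out each oocyte in turn gave 498 to 959 genes at least 2-fold higher, 412 to 716 lower, 702 to 1187 higher without overlap and 589 to 1011 lower without overlap. The fewest 2-fold higher (498) and the most 2-fold lower genes (716) came without oocyte 14, and the most without overlap without oocyte 87. Total-count scaling gave 446 higher and 495 lower without overlap, and TMM 531 and 445. Of list medians 851 of 913 moved by less than the spread between oocytes and 62 by more. Of named genes' ratios 1957 of 2028 did, 69 moved by more and 2 changed sign in a gene past 2-fold or without overlap, *Gjb2* between -3.39 without oocyte 30 and 0.66 without oocyte 79, and *Zfp266* to -0.25 without oocytes 13 and 14. Of the 24 named genes that were neither, 8 changed sign in some setting, among them *Figla*, *Khdc3* (-0.12 to 0.30) and *Star* (-0.03 to 0.68). The cause was not tested. Genes with means of 10 to 34.5 held 464 of the 724 genes at least 2-fold higher, and the part of depth in this was not tested.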

Other observations

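Wild-type oocyte 87 was the one that most often kept the genotypes from separating. Without it 1187 genes were higher and 1011 lower without overlap, against 550 and 427 with it. Leaving out any other wild-type oocyte gave 702 to 751 higher and 609 to 650 lower genes. *Cdc20* (1127 in oocyte 87 against 416 to 470.0 in the other 3), *Zp1*, *Qars* and *Sars* were among the genes in which oocyte 87 was the wild-type oocyte nearest to *Nlrp5*-/-, and so was *Lars2*. Of the *Nlrp5*-/- oocytes, 14 had the same place, with 996 higher and 865 lower genes without overlap once it was left out. No explanation of either oocyte was tested.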
